A study of Mus musculus with 6 samples.

Results

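In TrkC neurons of the mouse dorsal root ganglion (DRG), 10351 stretches of open chromatin lay inside protein-coding genes, away from every gene end, and carried no acetylation of lysine 27 of histone H3 (H3K27ac). They are called unacetylated intragenic elements here. Each is a peak of the deposited list of ATAC peaks (assay for transposase-accessible chromatin with sequencing) on chromosomes 1 to 19, X and Y, over 1 kb from both annotated ends of every protein-coding gene. Its midpoint falls in a gene span, no span covering it is longer than 500 kb, and it shares 0 bp with any peak of the deposited H3K27ac list. The rule took 10351 of 43652 ATAC peaks analysed (23.7%), and 46.5% of the 22254 peaks that were both distal to gene ends and unacetylated. The elements covered 1.94 Mb, and 10266 lay in 1 gene, 80 in 2 genes and 5 in more, which gave 10458 pairs of an element and a host gene.

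The cells came from embryos at stage E11.5 of CB6 mice carrying a Runx3 bacterial artificial chromosome (BAC) with GFP. Ganglia were dissociated with trypsin and collagenase, the cells were fixed with paraformaldehyde, and 50000 sorted GFP-positive cells were used per preparation. There were 2 samples each of ATAC, H3K27ac chromatin immunoprecipitation and input DNA, all of this single genotype, stage and sort, with no second condition to compare. GFP driven by the BAC defines the sorted population, and reads from the BAC copy of the Runx3 region cannot be told apart from those of the endogenous gene. The 2 lists hold positions only, 1 consensus per assay, so no value has a spread between replicates, the depth of each sample is unknown, and no test over samples was possible. Intervals are 95% Wilson intervals for shares and exact Poisson intervals for rates, and cover counting error only; elements of 1 gene share that gene and are not replicates.

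Open chromatin inside genes includes enhancers, alternative promoters and sites bound by factors such as CTCF. H3K27ac is laid down by the acetyltransferases CBP and p300 and marks active enhancers and promoters. Open elements without it include poised or silenced enhancers, insulators and promoters that are held inactive, for example by Polycomb proteins, so a peak list alone does not give the function of such an element.

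The sequences of most elements were not analysed here, because a peak's bases could be read only where a listed RefSeq transcription start lay beside it. Such starts, each with the 250 bases before it, were given for 17492 protein-coding genes, among them 4305 of the 5488 host genes (78.4%). Of the elements, 26 lay wholly within those 250 bases, outside chromosomes 8 and 18. The 6 widest are printed whole, from RefSeq GRCm38.p6 (mm10), on the strand of the gene and 5′ to 3′, with every CG dinucleotide in capitals because CG content differs between classes of start below.
Olfm1 (chr2:28205482-28205687, plus strand): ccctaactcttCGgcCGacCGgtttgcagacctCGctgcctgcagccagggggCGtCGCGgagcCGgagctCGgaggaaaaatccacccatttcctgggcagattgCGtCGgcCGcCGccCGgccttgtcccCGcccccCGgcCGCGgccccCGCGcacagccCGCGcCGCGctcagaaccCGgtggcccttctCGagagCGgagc
Dab2ip (chr2:35691761-35691956, plus strand): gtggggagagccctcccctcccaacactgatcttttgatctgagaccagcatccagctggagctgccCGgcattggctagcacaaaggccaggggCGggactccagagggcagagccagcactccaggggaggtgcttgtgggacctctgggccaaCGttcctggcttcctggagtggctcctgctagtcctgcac
Phactr1 (chr13:43122621-43122814, plus strand): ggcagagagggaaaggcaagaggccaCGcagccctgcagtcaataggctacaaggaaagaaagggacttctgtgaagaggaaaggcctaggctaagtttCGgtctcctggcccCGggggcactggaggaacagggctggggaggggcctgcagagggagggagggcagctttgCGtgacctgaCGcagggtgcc
Zfand4 (chr6:116266339-116266523, plus strand): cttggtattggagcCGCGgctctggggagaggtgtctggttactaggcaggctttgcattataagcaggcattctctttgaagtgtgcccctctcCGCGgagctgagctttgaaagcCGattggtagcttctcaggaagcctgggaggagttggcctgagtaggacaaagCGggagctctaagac
Frem2 (chr3:53657406-53657581, minus strand): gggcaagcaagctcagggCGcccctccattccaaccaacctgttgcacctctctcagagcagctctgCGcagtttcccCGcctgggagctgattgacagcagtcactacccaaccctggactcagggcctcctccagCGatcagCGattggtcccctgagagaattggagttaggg
Gad2 (chr2:22622119-22622283, plus strand): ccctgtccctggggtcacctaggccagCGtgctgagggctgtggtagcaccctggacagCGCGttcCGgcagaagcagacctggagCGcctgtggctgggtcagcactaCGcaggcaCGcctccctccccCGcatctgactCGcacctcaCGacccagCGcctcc
The Olfm1 element holds 27 CG dinucleotides in 206 bp and lies 12.6 kb inside the gene, 0.275 kb from an H3K27ac peak. The Dab2ip element holds 3 in 196 bp and the Phactr1 element 5 in 194 bp; these lie 134 and 442 kb inside genes whose annotated ends carried neither mark. Gad2, which makes GABA, holds the element farthest from acetylation of the 6, at 122 kb. Over the 26 elements, the median ratio of observed to expected CG was 0.442 and the median GC content 61.2%.

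Narrow width was the first property of the elements. Their median width was 158 bp (quartiles 122 and 222 bp, range 87 to 938 bp), and 46.4% were under 150 bp. The 3816 acetylated elements inside genes, chosen by the same rule except for overlap with H3K27ac, had a median of 286 bp (quartiles 192 and 429 bp). Unacetylated peaks between genes had a median of 153 bp (n = 10982), and acetylated ones between genes 268 bp (n = 2193). Widths over 400 bp occurred in 3.62% of the unacetylated intragenic elements (375 peaks) and 29.7% of the acetylated ones. Width followed acetylation rather than position inside or between genes. A wider peak also has more room to touch an H3K27ac peak, so width is not independent of the rule.

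**Figure D1:**
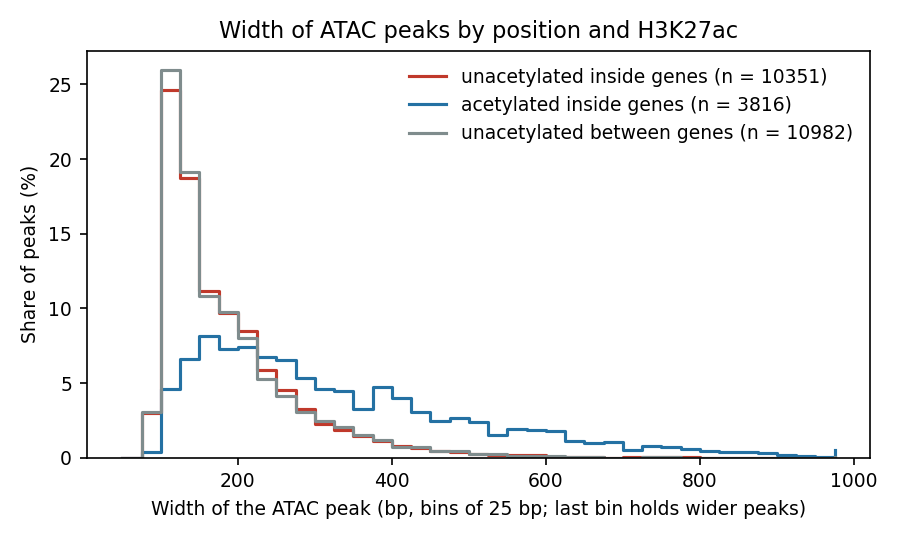
Share of ATAC peaks (%) by peak width in bp, in bins of 25 bp, for unacetylated elements inside genes, acetylated elements inside genes and unacetylated peaks between genes. Both unacetylated classes pile up near 100 to 150 bp with medians of 158 and 153 bp, while the acetylated class is broad with a median of 286 bp.

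The elements were also sparse. The nearest other ATAC peak was a median of 9.99 kb away, against 3.70 kb for acetylated intragenic elements and 11.9 kb for unacetylated peaks between genes. A second ATAC peak lay within 1 kb of 8.70% of them, and of 37.3% of the acetylated ones. The nearest H3K27ac peak was a median of 23.3 kb away, closer than the 36.8 kb of unacetylated peaks between genes. Acetylation lay within 1 kb of 7.17% of the elements, within 5 kb of 15.6% and within 50 kb of 72.4%. The corresponding shares between genes were 5.07%, 10.9% and 58.6%.

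Few elements sat close to the thresholds that define them. An H3K27ac peak lay 1 to 100 bp from 183 elements and over 100 bp but within 1000 bp of 559, while 2858 had none within 50 kb. Just outside the rule, 312 peaks were partly covered by H3K27ac by 1 to 100 bp, and 2922 acetylated peaks were wholly covered. Near the limit for gene ends, 253 elements lay within the first 250 bp beyond 1 kb, and 298 unacetylated peaks lay within the last 250 bp before it and were left out. Spans of 450 to 500 kb held 222 elements, and spans of 500 to 550 kb held 79 peaks that were left out.

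Position along the gene also differed between the classes. Strand was known for the hosts of 8024 elements with a single host. Of these, 46.0% (44.9 to 47.1%) lay nearer the start than the far end, against 70.6% (68.9 to 72.2%) of 2983 acetylated elements. From start to far end, successive 20% portions of the gene held 16.7%, 19.2%, 19.6%, 22.2% and 22.3% of the unacetylated elements. The same portions held 38.6%, 22.6%, 16.5%, 13.5% and 8.85% of the acetylated ones. The unacetylated elements were spread almost evenly with a slight lean to the far end, and the acetylated ones were crowded towards the start. The rule splits the classes by overlap with H3K27ac, which lay at the start of 55.6% of hosts with known strand and at the far end of 3.97%. Position is therefore not independent of the rule.

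Per Mb of gene, unacetylated elements were densest at 1 to 2 kb from the start, with 18.6 (16.5 to 21.0), and numbered 13.2 at 10 to 20 kb, 12.2 at 50 to 100 kb and 10.7 (9.89 to 11.6) at 200 to 500 kb. Acetylated elements numbered 31.9 (29.1 to 34.9) at 1 to 2 kb, 4.12 at 10 to 20 kb and 2.83 (2.41 to 3.29) at 200 to 500 kb. Both densities were lower farther from the start, the acetylated one by far the more. The contrast is again not independent of the rule, because H3K27ac itself lay mostly at starts. Genes of all lengths up to 500 kb are pooled here, and short genes enter only the nearer distances.

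**Figure D2:**
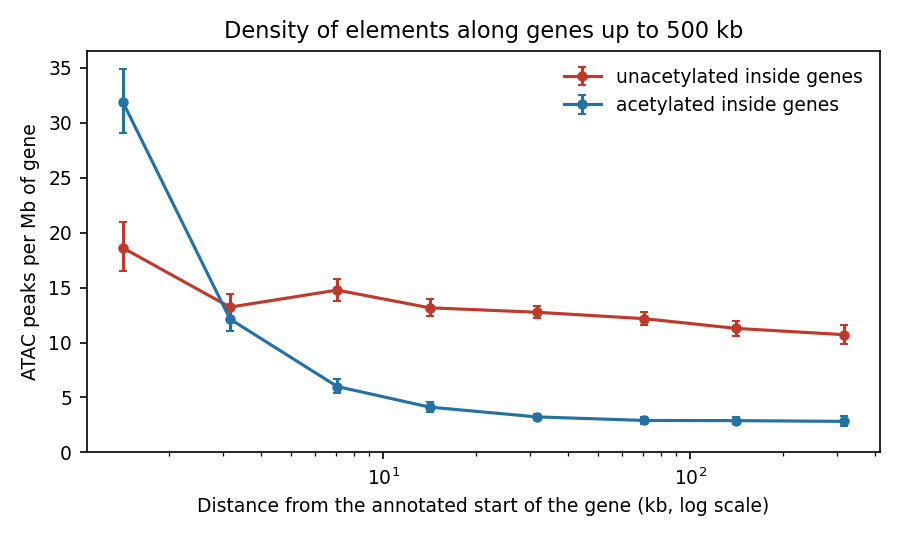
ATAC peaks per Mb of gene against distance from the annotated start in kb (log axis), for unacetylated and acetylated elements inside all genes up to 500 kb with known strand; points are rates in 8 distance classes and bars are 95% Poisson intervals. The unacetylated line lies between 18.6 and 10.7 per Mb, and the acetylated line drops from 31.9 to 2.83.

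Listed alternative starts lay under a small part of the elements. A listed start of a protein-coding gene was covered by 253 elements (2.44%, interval 2.16 to 2.76%), and 545 (5.27%) lay within 1 kb of one. Of the acetylated intragenic elements, 897 (23.5%) covered a listed start. Ends of long noncoding RNA genes lay within 1 kb of 342 elements (3.30%) and of 9.30% of the acetylated ones. After both kinds of feature were set aside, 9508 elements (91.9%) remained, against 2271 acetylated ones (59.5%). The listing is incomplete, so these shares are lower limits for starts.

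The 253 elements on listed starts lay in 249 genes, of which 131 had neither mark within 1 kb of an annotated end, 68 had both and 49 had ATAC only. Their median width of 247 bp exceeded the 155 bp of the other elements. Among the 10 widest of all elements, D430041D05Rik (872 bp, chr2:104409855-104410726) and Tmcc3 (759 bp, chr10:94514702-94515460) covered a listed start, and the element in Gabrb1, a GABA receptor subunit (758 bp, chr5:71700623-71701380), lay 691 bp from one. The widest, 938 bp, lay in the translation factor gene Eif3b at chr5:140438687-140439624, 5827 bp from the nearest listed start and 18.5 kb from H3K27ac.

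Sequence at these internal starts differed from that at acetylated ones. Over the 300 bases around each start, the median ratio of observed to expected CG was 0.559 at 276 listed starts covered by an unacetylated element, 0.787 at 1008 covered by an acetylated one and 0.567 over all 21263 listed starts. GGGCGG, the core letters of an SP1 site, occurred on either strand in 61.2% and 69.0% of the starts under unacetylated and acetylated elements, and in 46.2% of all. The palindromic NRF1 motif occurred in 1.81% and 10.5%, and in 6.38% of all. TATAAA occurred in 4.71% and 4.46%, close to each other, and in 12.6% of all. None of the 3 motifs contains another, and a match in letters is not evidence of binding.

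Elements were found in 5488 of 19077 protein-coding genes of up to 500 kb with an interior beyond 1 kb from both ends; this background of 28.8% is the share of hosts used throughout. An acetylated element was present in 12.7% of the same genes, and 26.9% of all 14167 intragenic peaks were acetylated. Most hosts, 3231 (58.9%), had 1 element, 1152 had 2, 504 had 3 and 601 (11.0%) had 4 or more, the last holding 32.6% of the element-gene pairs. Hosts were long, with a median of 50.5 kb against 15.0 kb for other genes, and the 1550 hosts over 100 kb held 44.8% of the pairs. Of the 5488 hosts, 1321 (24.1%) also held an acetylated element.

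Open ends of host genes up to 100 kb were acetylated in a smaller share of genes than those of other genes of the same length, while the share with an open end was similar within length classes. Within 1 kb of an annotated end, 3004 hosts (54.7%, interval 53.4 to 56.1%) had both marks, beside 52.8% of all genes up to 500 kb; the marks may lie at different ends. ATAC only was found at 972 hosts (17.7%, 16.7 to 18.7%), beside 13.4% of all. H3K27ac only was found at 107 (1.95%), beside 1.64%, and neither at 1405 (25.6%, 24.5 to 26.8%), beside 32.2%. In all, 72.4% of hosts had an open end and 56.7% an acetylated one, beside 66.1% and 54.4% of genes up to 500 kb. Hosts are longer, and within length classes the open share differed little from that of non-hosts: 58.2% and 55.8% up to 10 kb, 72.6% and 69.7% at 25 to 50 kb and 77.6% and 71.1% at 200 to 500 kb, with intervals that overlap in every class. Among genes with an open end, acetylation was present at 75.6% of hosts (74.2 to 76.9%) and 81.7% of non-hosts (80.9 to 82.5%). Up to 10 kb these shares were 61.1% and 79.4%, at 25 to 50 kb 76.3% (73.4 to 78.9%) and 84.4% (82.6 to 86.0%), and at 100 to 200 kb 79.9% and 80.4%. At 200 to 500 kb they were 77.6% (73.7 to 81.2%) and 74.1% (65.1 to 81.4%), where the intervals overlap. A host needs a peak free of H3K27ac, and acetylation that reaches inward from an end takes nearby peaks out of the rule. The state of the ends is therefore not independent of being a host, and the part this plays in the difference was not tested.

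Where strand was known, the open end was far more often the start than the far end. ATAC lay at the start of 69.8% of 4305 hosts and at the far end of 7.83%, and H3K27ac at 55.6% and 3.97%. For non-hosts the start shares were 61.9% and 53.0%. Counting every listed start, 60.2% of hosts had both marks, 819 (of 4305) ATAC only, 1.16% H3K27ac only and 19.6% neither, beside 56.3%, 12.4%, 1.01% and 30.3% of the 15149 genes with a listed start. Of 1108 hosts whose annotated ends had neither mark, 228 (20.6%) had both among their listed starts and 182 (16.4%) had ATAC only there. An element can itself open a listed start in this count.

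The share of genes with an element rose with length for ends with both marks, ATAC only or neither, so shares were read within length classes. Among genes of 25 to 50 kb, an element was present in 45.5% (220 of 483) of genes with ATAC only at an end, 33.2% (31.2 to 35.3%) of genes with both marks and 31.5% (28.7 to 34.4%) of genes with neither. The same order of ATAC only above both held up to 10 kb (13.1% against 5.78%), at 10 to 25 kb (29.7% against 18.6%) and at 50 to 100 kb (56.9% against 46.9%). It was not seen at 100 to 200 kb (66.8% against 66.1%) or 200 to 500 kb (79.1% against 82.1%). With each group set to the length mix of all genes, 36.5% of ATAC-only genes were hosts, 34.7% of the 313 genes with H3K27ac only, 27.7% of genes with both and 26.8% of genes with neither. Up to 10 kb, 117 of 260 intragenic elements were acetylated in genes with both marks, and 8 of 105 in genes with ATAC only. An acetylated peak cannot make a gene a host, so these host shares are not independent of the rule.

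**Figure D3:**
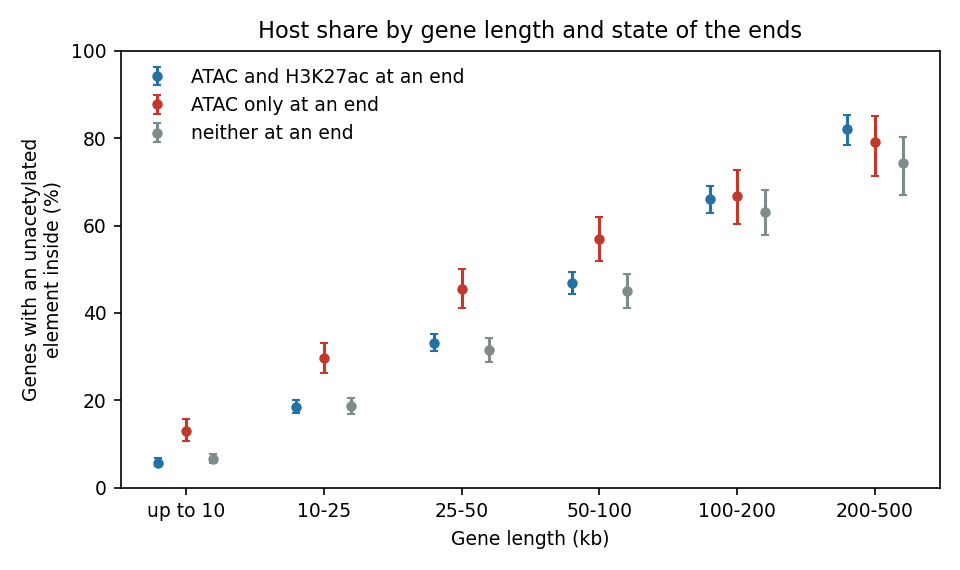
Share of genes (%) with at least 1 unacetylated element inside, by gene length class in kb and by the marks within 1 kb of the annotated ends; bars are 95% Wilson intervals. Of the 3 groups drawn, genes with ATAC only lie highest up to 100 kb, for example 45.5% against 33.2% and 31.5% at 25 to 50 kb; the few genes with H3K27ac only (24 hosts of 48 at that length) are not drawn.

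Per Mb of interior, genes with ATAC only at an end held 15.2 elements, those with H3K27ac only 15.5, those with both 12.1 and those with neither 12.8. Acetylated elements made up 14.8% of all intragenic elements in ATAC-only genes, 27.2% in genes with both marks, 29.8% in genes with neither and 53.9% in those with H3K27ac only. With state taken from listed starts, the shares were 7.01% for ATAC only, 33.8% for both and 14.1% for neither, so neither no longer stood above both. An element on a listed start can itself set the state in that count. With the wider 50% of each peak list the orders changed: neither held 5.66 per Mb, ATAC only 4.28 and both 3.44, and the acetylated share was 39.7% for both and 31.8% for neither. When state was taken from listed starts and elements within 1 kb of a listed start were left out, 34.0% of ATAC-only genes and 29.7% of genes with both marks were hosts, beside 43.6% and 30.4% with those elements kept.

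The starts of hosts differed in sequence by state. The median ratio of observed to expected CG at the first listed start was 0.803 in 2477 hosts with both marks there, 0.608 in 781 with ATAC only and 0.254 in 993 with neither. GGGCGG occurred in 73.6%, 63.4% and 21.9% of them. Non-hosts with the same states had medians of 0.815, 0.553 and 0.186, so the order by state was the same outside hosts. For Msi2 (both marks), Cdh23 (ATAC only) and Cdc14a (neither), chosen as hosts with many elements in each state, and for both starts of Runx3, the 250 bases before the start are printed 5′ to 3′ on the strand of the gene from RefSeq GRCm38.p6, with CG in capitals.
Msi2 (chr11:88718278-88718527, minus strand): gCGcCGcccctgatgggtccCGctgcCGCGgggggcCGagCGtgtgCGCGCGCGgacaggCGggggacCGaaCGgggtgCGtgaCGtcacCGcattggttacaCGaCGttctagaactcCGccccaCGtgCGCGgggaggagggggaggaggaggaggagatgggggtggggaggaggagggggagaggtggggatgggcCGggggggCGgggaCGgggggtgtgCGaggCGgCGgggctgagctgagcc
Cdh23 (chr10:60696491-60696740, minus strand): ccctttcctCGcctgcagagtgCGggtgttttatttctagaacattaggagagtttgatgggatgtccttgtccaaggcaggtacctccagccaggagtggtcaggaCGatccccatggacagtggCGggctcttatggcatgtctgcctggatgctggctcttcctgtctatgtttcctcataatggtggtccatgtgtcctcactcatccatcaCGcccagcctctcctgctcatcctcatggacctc
Cdc14a (chr3:116428742-116428991, minus strand): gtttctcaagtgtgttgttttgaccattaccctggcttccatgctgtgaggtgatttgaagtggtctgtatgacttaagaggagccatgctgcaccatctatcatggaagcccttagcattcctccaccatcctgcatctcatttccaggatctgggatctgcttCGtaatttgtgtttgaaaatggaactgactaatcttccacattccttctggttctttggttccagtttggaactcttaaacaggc
Runx3 (chr4:135120395-135120644, plus strand): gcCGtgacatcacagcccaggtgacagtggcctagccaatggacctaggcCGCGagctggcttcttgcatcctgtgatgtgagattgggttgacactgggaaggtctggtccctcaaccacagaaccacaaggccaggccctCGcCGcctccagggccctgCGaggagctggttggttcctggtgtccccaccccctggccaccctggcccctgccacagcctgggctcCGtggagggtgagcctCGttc
Runx3 (chr4:135152295-135152544, plus strand): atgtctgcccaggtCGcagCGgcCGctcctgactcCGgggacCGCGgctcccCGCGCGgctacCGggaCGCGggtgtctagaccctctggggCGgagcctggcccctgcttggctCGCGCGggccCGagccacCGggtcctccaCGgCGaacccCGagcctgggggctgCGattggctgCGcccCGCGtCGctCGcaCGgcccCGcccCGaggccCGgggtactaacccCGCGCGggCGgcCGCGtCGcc
They hold 29 CG dinucleotides for Msi2, 5 for Cdh23, 1 for Cdc14a, 8 for the first start of Runx3 and 38 for the second. The starts with H3K27ac, Msi2 and the second of Runx3, are the ones dense in CG. Cdc14a has 3 listed starts, and this one, its outermost, had neither mark, while both were found among the others.

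Runx3, the transcription factor of TrkC neurons whose BAC marked the cells, held 9 unacetylated elements within 57.3 kb, or 16.3 per 100 kb, one of the 10 highest densities among hosts with 4 or more. Reads of the BAC copy may add to the peaks called here, and their part in this density was not tested. Between its 2 listed starts, at positions 135120645 and 135152545 of chromosome 4, lay 7 elements: chr4:135126540-135126639 (100 bp), chr4:135128832-135129097 (266 bp), chr4:135129912-135130102 (191 bp), chr4:135131181-135131405 (225 bp), chr4:135140757-135140978 (222 bp), chr4:135146650-135147071 (422 bp) and chr4:135150509-135150715 (207 bp). Downstream of the second start lay 374 bp at chr4:135158734-135159107 and 359 bp at chr4:135166458-135166816. Distances to H3K27ac ran from 25.4 kb at the most upstream element to 1.33 kb at the last one before the second start, and were 0.852 and 3.78 kb for the pair downstream of it. The first start was open without H3K27ac, the second carried both, and 3 acetylated elements lay in the gene.

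Ntrk3, which encodes TrkC, the receptor for neurotrophin-3, spans 401 kb and had neither mark at its annotated ends. It held 4 unacetylated elements, at chr7:78190942-78191182 (241 bp), chr7:78471808-78472114 (307 bp), chr7:78546604-78546971 (368 bp) and chr7:78568965-78569161 (197 bp), and 3 acetylated ones among 4 H3K27ac peaks. The second of these lay 128 bp from an H3K27ac peak and the first 148 kb from one. No listed start was matched for Ntrk3.

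The 20 hosts with most elements held 12 to 19 each. Gse1, a chromatin-associated coiled-coil gene, had 19 unacetylated and 23 acetylated elements. Rbfox3, the splicing factor known as the neuronal marker NeuN, had 17 and 7, with H3K27ac only at its ends. Prdm16, a zinc finger regulator, had 16 and 1, with neither mark at the ends but both among its listed starts. Msi2, an RNA-binding protein of progenitor cells, had 16 and 0 with both marks at its ends. Those 16 ran through 379 kb at widths of 99 to 323 bp, 1 of them 0.07 kb from an H3K27ac peak and the farthest 97.7 kb from any. The ratio of unacetylated to acetylated elements therefore ranged widely between hosts with acetylated ends, as Maml3, a Notch coactivator, had 12 and 15.

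**Figure D4:**
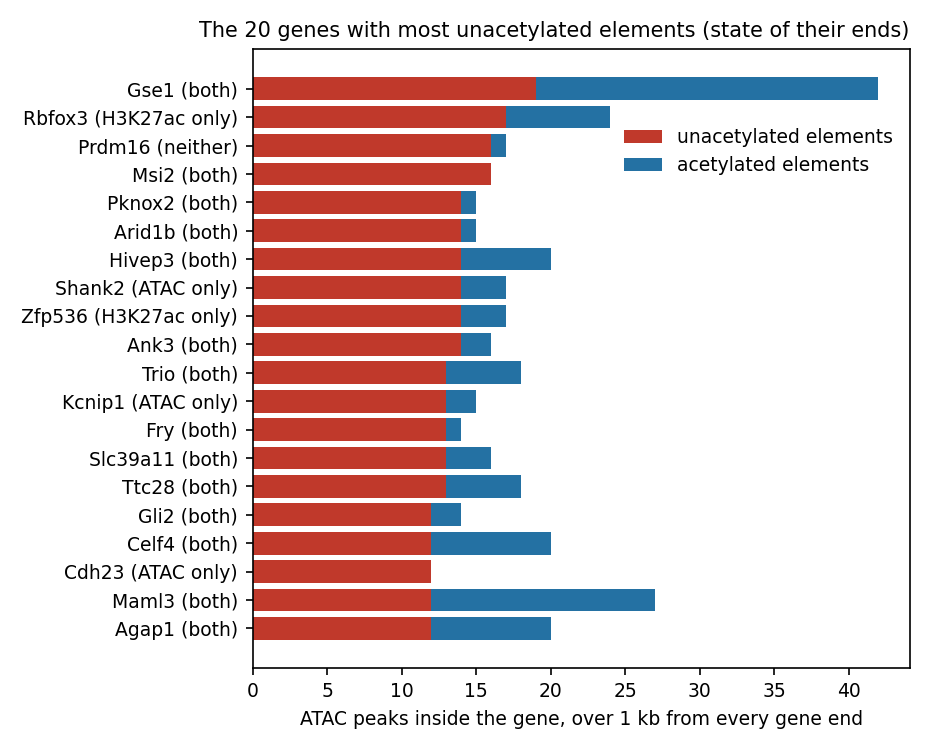
Number of ATAC peaks inside each of the 20 genes with most unacetylated elements, split into unacetylated and acetylated elements, with the marks at the annotated ends in parentheses. Gse1 has 19 and 23, whereas Msi2 has 16 and 0 and Cdh23 12 and 0.

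A second kind of host carried many open elements and no acetylation at its ends or on its elements. Cdh23, a cadherin of hair-cell tip links, had 12 elements in 394 kb with ATAC only at its end, at widths of 114 to 304 bp and 19.8 to 193 kb from H3K27ac. Igsf21, an immunoglobulin superfamily synaptic gene, had 11, and Cdh4, Sez6l and Pdzd2 had 10 each, all with ATAC only. Cdh22 and the kainate receptor subunit Grik3 had 9 each, the latter with neither mark at its ends. Ryr1, the calcium release channel of skeletal muscle, had 8. Of all hosts, 1665 (30.3%) had no H3K27ac at an end or inside, beside 38.9% of genes up to 500 kb, and 950 (17.3%) also had no ATAC at an end. The share without H3K27ac was 58.7% for hosts and 53.0% for non-hosts up to 10 kb, 33.1% and 34.2% at 25 to 50 kb, and 13.9% (11.4 to 16.9%) and 25.7% (19.4 to 33.1%) at 200 to 500 kb.

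Short genes could also be dense in elements. Per 100 kb of interior, among hosts with 4 or more, Nfkb2 had 42.5, with 3 of its 4 elements within 1 kb of a listed start, Ltbp4 27.6 and Nkx2-2 23.6. The repressor Bcl6 and the planar polarity gene Vangl2 had 18.3 and 16.4. Dnmt3a, the de novo DNA methyltransferase, held 9 elements and 3 acetylated ones in 113 kb; its annotated ends had neither mark, and both were found among its listed starts.

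Defining markers of the labelled cell type were compared with those of other cell types at annotated ends, where 52.8% of genes up to 500 kb had both marks. Both were present at 20 of 23 pan-neuronal genes and 20 of 26 sensory transcription factors, but at 5 of 16 proprioceptor genes. Of the other sensory lists, 11 of 16 mechanoreceptor genes and 3 of 19 nociceptor and thermoreceptor genes had both. Of the 16 proprioceptor genes, 6 had ATAC only and 5 neither at their annotated ends. Pvalb, Spp1 and Ntrk3 were among those with neither, and Whrn had both. Runx3 had ATAC only at its annotated ends but both marks among its listed starts. A count at annotated ends therefore leaves out acetylation at other starts. An unacetylated element of 156 bp covered a listed start of Pvalb, 2.16 kb inside its annotated start. Among other cell types, both marks were present at 0 of 18 endothelial genes, 2 of 20 blood and immune genes and 11 of 22 genes of glia and neural crest. The last was near the share of all genes. H3K27ac only was found at 4 of those 22, beside 1.64% of all genes up to 500 kb. It was also found at 2 blood and immune genes, 3 sensory transcription factors and 1 pan-neuronal gene, and at 0 genes of the other lists compared here. Both marks were present at 0 of 21 dorsal and 2 of 20 ventral spinal genes. In muscle, sclerotome and mesenchyme 4 of 27 genes had both, and in liver, gut and skin epithelium 2 of 23. The part that other cells in the sort play in the elements was not tested.

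The hosts were then counted in 25 gene lists, each beside the count that the length classes of its genes would give at the share of all genes. This description stands in place of a test, and the lists were chosen with results of these data known. In 20 of 25 lists the share of hosts was above that of the length classes. Any excess counts in this tally, however small, and no interval is set on it. Blood and immune genes, for example, had 6 hosts beside 5.57, and pan-neuronal genes 10 beside 8.84. The ratio to the length-class share was highest in the 2 lists of spinal cord transcription factors and transmitter genes, which do not belong to the labelled tissue.

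Of 20 genes of motor neurons and the ventral spinal cord, 11 (55.0%) were hosts, beside 18.7% at the length-class share, with 17 unacetylated elements beside 4.84 at the length-class rate and 0 acetylated ones. Their hosts had no H3K27ac at an end or inside in all 11 cases, beside 30.3% of all hosts and 58.7% of hosts up to 10 kb. The listed genes had a median length of 6.78 kb. H3K27ac at an end was rare in the whole list, at 2 of its 20 genes, so this is not particular to its hosts. Nkx2-2, a factor of ventral progenitors, held 4 elements at chr2:147177814-147177942, chr2:147178241-147178357, chr2:147178719-147179070 and chr2:147188047-147188163, all at least 163 kb from H3K27ac. Lhx4, a factor of motor neurons, held 3, of 264, 261 and 99 bp, and the middle one lay 22 bp from a listed start. Shh, the ventral signal itself, held 2, of 174 and 280 bp, and Nkx6-2 held 1, of 155 bp. With a window of 2.5 kb around gene ends, which left 9216 elements, 7 genes of the list were hosts. The length-class share for that window is not given here.

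Dorsal spinal interneuron genes gave 11 hosts of 21 (52.4% beside 23.1%), with 23 unacetylated elements beside 9.73 and 1 acetylated one. Lmx1b held 5 elements, of 123, 306, 184, 326 and 438 bp, with neither mark at its ends. Lhx9, Lmx1a and Pax2 held 3 each, with ATAC only at their ends. Gad2, whose printed element precedes a listed start, held 2. Of the 11 hosts, 8 had no H3K27ac at an end or inside, beside 30.3% of all hosts, and 0 of the 21 listed genes had both marks at their ends. With the 2.5 kb window 7 genes were hosts, again without a length-class share for that window.

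Genes of muscle, sclerotome and mesenchyme gave 12 hosts of 27 (44.4% beside 24.4%), all 12 without H3K27ac at an end or inside. Pax7, a factor of muscle and neural precursors, and the growth factor receptor Pdgfrb held 3 elements each. Endothelial genes gave 8 hosts of 18 (44.4% beside 35.9%), all 8 without H3K27ac at an end or inside and led by the receptor Flt1 with 5 elements, but their 13 elements stood beside 13.2 at the length-class rate. Liver, gut and skin epithelium stood at the length-class share (26.1% beside 26.3%), and blood and immune genes close to it (30.0% beside 27.9%). Neither list stood as far from its length classes as the spinal lists did. Hosts without H3K27ac at an end or inside made up 30.3% of all hosts. H3K27ac lay at an end of 4 of the 27 muscle, sclerotome and mesenchyme genes and of 0 of the 18 endothelial genes, hosts or not.

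Wnt genes gave 32 hosts of 52 (61.5% beside 35.2%), with 77 unacetylated elements beside 39.1 and 10 acetylated ones beside 14.0. The nuclear effectors led. Tcf7l1, a repressor of Wnt targets in the absence of signal, held 10 and no acetylated element in 163 kb, at widths of 178 to 351 bp and 9.95 to 82.0 kb from H3K27ac, although both marks lay at its start. Tcf7l2 held 6 and the receptor Ror2 5, each with both marks at the ends. The ligand Wnt5b held 5, with neither mark at its annotated ends. Of the 32 hosts, 13 had no H3K27ac at an end or inside, beside 30.3% of all hosts.

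Genes of the labelled lineage had both kinds of element. Proprioceptor genes gave 12 hosts of 16 (75% beside 43.2%), with 32 unacetylated elements beside 19.6 and 9 acetylated beside 6.70. Runx3, whose region the BAC also carries, held 9 of the 32 and 3 of the 9. Calb1, Chad, Lmcd1 and Spp1 had none. Whrn, a scaffold gene, held 5, and the synaptic ligand Nxph1 3. Sensory transcription factors gave 11 of 26 (42.3% beside 31.5%), with 39 unacetylated elements beside 21.0 and as many as 39 acetylated ones beside 7.47. Eya2 held 8 unacetylated and 3 acetylated elements, Ebf1 7 and 7, and Ebf3 6 and 4. Pan-neuronal genes gave 10 of 23 (43.5% beside 38.5%), with 30 beside 22.0 and 41 acetylated beside 7.81; the splicing factor Celf4 held 12 and 8, and the tau gene Mapt 6 and 2.

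Lists of sensory neuron subtypes, guidance and signalling genes also held more hosts than their length classes give, some by few genes. Hosts numbered 16 beside 13.9 for ephrins, slits and netrins, and 9 beside 6.69 for nociceptor and thermoreceptor genes. No counting interval is given for these lists. Mechanoreceptor genes gave 10 hosts of 16 (62.5% beside 43.9%), led by Ntrk2, the BDNF receptor TrkB, with 7 unacetylated and no acetylated elements. Nociceptor and thermoreceptor genes gave 9 of 19 (47.4% beside 35.2%), led by Runx1 with 7 and 2. Semaphorins, plexins and neuropilins gave 20 of 30 (66.7% beside 46.0%), led by Plxna4 with 8 and 0. Ephrins, slits and netrins gave 16 of 33 (48.5% beside 42.1%); Slit1, an axon repellent, held 11 and 2, and the receptor Ephb2 10 and 0. Notch genes gave 14 of 29 (48.3% beside 30.4%) and BMP and TGF-beta genes 22 of 39 (56.4% beside 39.7%).

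Synaptic release genes gave 20 hosts of 31 (64.5% beside 46.4%), ion channels 22 of 29 (75.9% beside 62.9%), neural adhesion genes 20 of 30 (66.7% beside 58.0%) and glia and neural crest 7 of 22 (31.8% beside 22.2%). Glutamate and GABA receptors stood at their length-class share (62.1% beside 62.6%). Chromatin regulators (20 of 51, 39.2% beside 44.7%), cell cycle genes (6 of 30, beside 23.6%) and housekeeping genes (2 of 24, 8.33% beside 16.1%) lay below it in hosts. In elements, ion channel genes held 68 beside 68.4, neural adhesion genes 56 beside 56.8 and glutamate and GABA receptors 54 beside 63.1, none above the length-class rate. Chromatin regulators held 64 beside 50.6, cell cycle genes 13 beside 11.9 and housekeeping genes 2 beside 4.39. The 2 housekeeping hosts were Gusb and Polr2a, with 1 element each.

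**Figure D5:**
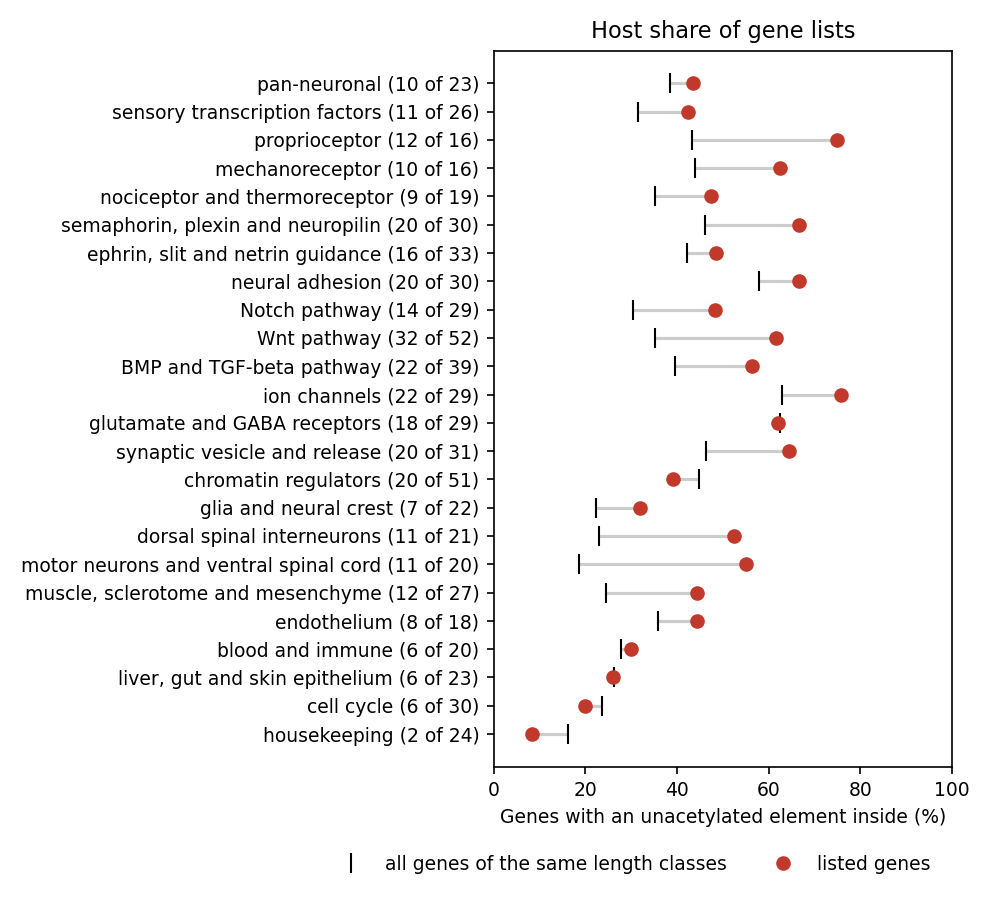
Share of genes (%) with an unacetylated element inside for 24 gene lists (points, with hosts and genes in parentheses) and the share that all genes of the same length classes give (vertical ticks). Motor neuron and ventral spinal cord genes stand at 55.0% against 18.7%, and housekeeping genes at 8.33% against 16.1%.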

How the data were processed

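Open chromatin and H3K27ac were each measured in 2 samples of sorted TrkC neurons. The submitters' processing notes name mm10, Bowtie2 2.3.5.1, bedtools, MACS2 and cutadapt 1.18 as the authors' build and tools; how each consensus was formed, and its thresholds, are not given in the sources used here. The files deposited by the authors give the bounds of each peak in 1 consensus peak list per assay (43739 ATAC and 19928 H3K27ac peaks), with no other score or signal, so depth and precision per sample are unknown. The input DNA is not used here.

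Positions were converted to count from 1 and compared with RefSeq GRCm38.p6 gene spans, listed starts and promoter sequences with Python 3.11.15, pandas 2.3.3, numpy 2.4.6 and scipy 1.17.1. Overlap means at least 1 shared bp, and an interior is a span without 1 kb at either end. The 227 genes over 500 kb were left out, as were bases of peaks away from listed starts. The rule was tested on simulated intervals. Of the 25 gene lists counted, 1 is not reported here. Members and gene lists were chosen with earlier results of these data known.

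Named genes are Runx3 and Ntrk3, the 20 hosts with most elements, up to 10 per state of the ends or by density, the hosts of the 10 widest elements, up to 4 hosts per list with exceptions where 5 or fewer, and up to 10 hosts without acetylation. Olfm1, Dab2ip, Zfand4, Frem2 and Gad2, printed for their sequence, and the proprioceptor gene Pvalb, were chosen after their values were seen. Alternatives were other windows, stricter peak sets, shorter spans, autosomes and isolated genes.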

Additional observations from a re-analysis of the deposited data

How the results depend on the processing

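The members rest on consensus positions alone: no replicate can be left out, widths and shares carry counting error only, and listed starts are incomplete. No paired analysis was possible because the replicates of each assay are merged in 1 deposited list. Taking the wider 50% of each list gave 3564 elements, beside 10351 as reported, with a median width of 291 bp and 49.8 kb from H3K27ac. Of their hosts, 31.4% were acetylated at an end (49.9% of those open). This setting also drops the narrower H3K27ac peaks, so an ATAC peak that overlapped only those counts as unacetylated. The 3564 are therefore not a subset of the 10351, and fewer ends can count as acetylated. Per Mb it gave 3.44 elements in genes with both marks, 4.28 with ATAC only and 5.66 with neither, which puts neither above ATAC only, and acetylated shares of 39.7%, 17.6% and 31.8%; the cause was not tested. Hosts then numbered 8 in the ventral and 7 in the dorsal spinal list, 14 in the Wnt list and 2 in that of muscle and mesenchyme. The length-class shares for this smaller set are not given here, so these counts do not show whether any list stayed above them.

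Counting elements by a midpoint outside H3K27ac gave a median of 161 bp and acetylated shares of 24.6%, 12.5% and 26.7%. Elements over 1 kb from listed starts and long noncoding RNA ends, an alternative chosen after seeing the data, had a median of 154 bp, 58.4% of hosts acetylated, and 11.503, 13.7 and 11.0 per Mb for both, ATAC only and neither.

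With a 0.5 kb window, 58.1% of elements lay over 10 kb from the nearest end (61.4% as reported), 52.3% of hosts were acetylated, genes with neither mark held 14.1 per Mb and the acetylated share in genes with both was 31.6%. With 2.5 kb, H3K27ac lay 24.3 kb away, the other values were 69.0% and 63.0%, rates were 13.7 for ATAC only and 10.4 for neither, and acetylated shares were 24.1%, 16.8% and 27.9%. Spans up to 200 kb gave 53.1% over 10 kb from an end and 12.7, 17.9 and 14.0 per Mb. A gap of at least 1 kb to H3K27ac gave 11.1 for both and 12.1 for neither, and autosomes 13.5 for neither. Genes with ends over 2 kb from other ends gave 52.8% acetylated, 72.9% of open hosts, and 14.1 and 12.0 per Mb for ATAC only and neither. The rate for ATAC only, with gene lengths pooled, exceeded that for both in each of the 8 settings in which rates were computed. At 200 to 500 kb, as reported, it did not. Of the summary values, 43 moved beyond their interval or by more than 1.5 times, and 41 did not. Of 175 list counts, 149 did not.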

Other observations

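Elements were sparse on the X chromosome, where 144 elements gave 4.32 per Mb of gene interior and 13.2% of genes were hosts. Autosomes ranged from 9.83 per Mb on chromosome 18 to 16.2 on chromosome 7, and the Y chromosome held 0. Acetylated elements on X numbered 2.52 per Mb, against 3.69 to 6.87 on autosomes. The labels do not give the sex of the embryos.

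Of the elements, 4 touched a microRNA hairpin: Mir6352 in Epha4 (element of 395 bp), Mir6991 in 2700081O15Rik (327 bp), Mir7026 in Ep400 (212 bp) and Mir128-2 in Arpp21 (chr9:112118406-112118779, 374 bp), a hairpin that lies wholly inside its element. These genes were singled out after their values were seen.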
